A study of Homo sapiens with 5 samples.

Results

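The genes described here are 10 markers of the epithelial or the mesenchymal state of a carcinoma cell, chosen by symbol from the 36601 gene rows of the count matrix. CDH1 (E-cadherin), EPCAM and ESRP1 belong to the epithelial side. CDH2 (N-cadherin), VIM (vimentin), FN1 (fibronectin) and the transcription factors ZEB1, ZEB2, SNAI2 and TWIST1 belong to the mesenchymal side. The cells were the human lung adenocarcinoma lines A549, H1975, H2228, H838 and HCC827, which were grown apart without treatment, frozen, and mixed in equal parts. Nuclei of the mixture were run through the 10× Multiome assay, which reads RNA and open chromatin (ATAC) from the same nucleus. The droplets were split into a portion of 20% and a portion of 80%, with 1 RNA and 1 ATAC library made from each, so no sample was replicated and no test between groups could be made. All values are for the mixture in culture, where no line was labelled in the files used here, and a level is a sum over nuclei that cannot separate more expressing nuclei from more RNA per nucleus unless the values per nucleus are given.

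The 80% matrix held 6557 nuclei with 95455518 RNA UMIs and 63920767 ATAC counts, and the 20% matrix 1286 nuclei with 14346346 and 12850543. The median nucleus carried 13306 UMIs in the 80% and 10540.5 in the 20% matrix. The matrices had 159 barcodes in common (2.42% of those in the larger and 12.4% of those in the smaller). Scrublet called 385 nuclei (5.87%) of the 80% and 80 (6.22%) of the 20% matrix doublets, and these were kept unless stated. The cell type was checked with marker genes. The keratins KRT7, KRT8, KRT18 and KRT19 were found in all 6 clusters of nuclei described next, at 104 CPM or more (UMIs scaled to the same total in every cluster). The lung markers NKX2-1, NAPSA, SFTPB and SFTA3 were lower throughout. SFTPB did not pass 0.379 CPM in any cluster, and NAPSA did not pass 6.83 outside cluster 5, where it reached 68.9. NKX2-1 and SFTA3 stood at 2.56 CPM or less in clusters 1 and 2, and at 16.95 or more elsewhere. Of the markers of blood, endothelial and fibroblast cells, PTPRC, CD3E, LYZ, HBB, VWF, CLDN5, DCN, LUM, COL3A1 and PDGFRA stayed under 1 CPM in every cluster. The others did not. The highest levels were 243 CPM of COL1A1 in cluster 0, 67.0 of COL1A2 in cluster 4, 26.5 of THY1 in cluster 2, 5.55 of PDGFRB, 14.1 of PECAM1 and 10.8 of CD14 in cluster 4, 44.3 of CD68 in cluster 5, 2.40 of KDR in cluster 0 and 1.41 of CDH5 in cluster 2.

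Epithelial cells are held together by E-cadherin junctions, and EPCAM is a surface adhesion protein of the same cells. ESRP1 is a splicing factor that keeps the epithelial forms of many transcripts. In an epithelial to mesenchymal transition (EMT) the repressors ZEB1, ZEB2, SNAI2 (Slug) and TWIST1 act on CDH1 and other epithelial genes through E-box elements such as CACCTG, while cells gain vimentin filaments, N-cadherin and a fibronectin matrix. The microRNAs of the miR-200 family hold ZEB1 and ZEB2 mRNA down, and ZEB proteins in turn repress the miR-200 genes. Lung adenocarcinoma lines are known to spread along this axis, and many hold intermediate states.

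Since the lines were not labelled, nuclei were grouped by their RNA, without the 10 genes and without 34 further epithelial and 32 further mesenchymal genes. This gave 6 clusters in the 80% matrix, numbered by size, with 2485, 1461, 1452, 440, 390 and 329 nuclei. The median UMIs per nucleus were 15469, 9151, 12672, 16646, 14488 and 11985 in the same order. Nuclei of the 20% matrix were placed in the cluster whose mean profile they matched best, which gave 508, 268, 300, 92, 63 and 55 nuclei. Cluster 1 was A549-like, with ALDH1A1 at 5355 CPM and the highest level of 5 of 5 marker genes. Cluster 5 was HCC827-like, with EGFR at 7199 CPM and the highest level of 4 of 4 genes of the amplified EGFR region. The other 4 clusters keep their number, and the genes with the largest excess over all other clusters were MALAT1, S100A10 and S100A6 in cluster 0, LDHB, HSP90AB1 and ITPR2 in cluster 2, HSP90AA1, HSPB1 and RPL28 in cluster 3, and PVT1, RPS28 and RPL37 in cluster 4. Clusters 3 and 4 formed 1 cluster when the rule asked for 5 clusters in place of 6. Their ATAC counts in peaks away from gene starts, summed in bins of 10 Mb, also differed least, with a standard deviation over 289 bins of 0.333 in the log2 ratio of their shares against 0.453 to 0.625 in the other 14 pairs. Whether clusters 3 and 4 come from the same line was not tested. Called doublets made up 11.03% of cluster 4 and 8.73% of cluster 0, against 0.620% to 6.69% in the other clusters. In the 80% portion, RNA levels of the 10 genes that moved by over 1.5 times without them are given both ways. RNA levels of the 20% portion are given with doublets kept, and some moved by more, such as ZEB2 in cluster 5, from 13.9 to 7.70 CPM.

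The RNA of the 10 genes differed between clusters (plot of RNA by cluster). Clusters 3 and 5 had high CDH1, EPCAM and ESRP1 and low ZEB1 and ZEB2. Clusters 0, 2 and 4 had low CDH1 and ESRP1 and higher ZEB1. Cluster 1 combined an intermediate CDH1 level with ZEB1, the highest FN1 and most of the CDH2 RNA. The highest cluster exceeded the lowest by at least 4-fold for 10 of 10 genes, where 36.2% of the 16234 genes with at least 100 UMIs in the 80% and 20 in the 20% matrix did so. TWIST1, with 31 UMIs, is not among those 16234. The intervals given with CPM are exact Poisson intervals, and like all intervals here they cover counting error only. On the log2 scale the median range over the 9 genes that passed was 4.33, against 1.51 over all 16234 genes. It was 5.39 for the 3 epithelial genes and 2.94 for the 6 mesenchymal genes that passed. Among the 16234 genes the ranges of ZEB1, FN1 and VIM stood at percentiles 67.8, 71.2 and 73.1. Those of the other genes that passed stood at 81.1 (SNAI2) to 99.3 (ESRP1). The lowest levels of CDH1, CDH2, ZEB2 and ESRP1 are read as background below, so their ranges may depend on that background. Scaled to total UMIs, the median gene stood from -0.063 (cluster 5) to 0.041 (cluster 0) off its mean over clusters in log2. A scaling by median ratios removes these shifts, and with it the log2 range of VIM was 2.48 against 2.57.

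**Figure D1:**
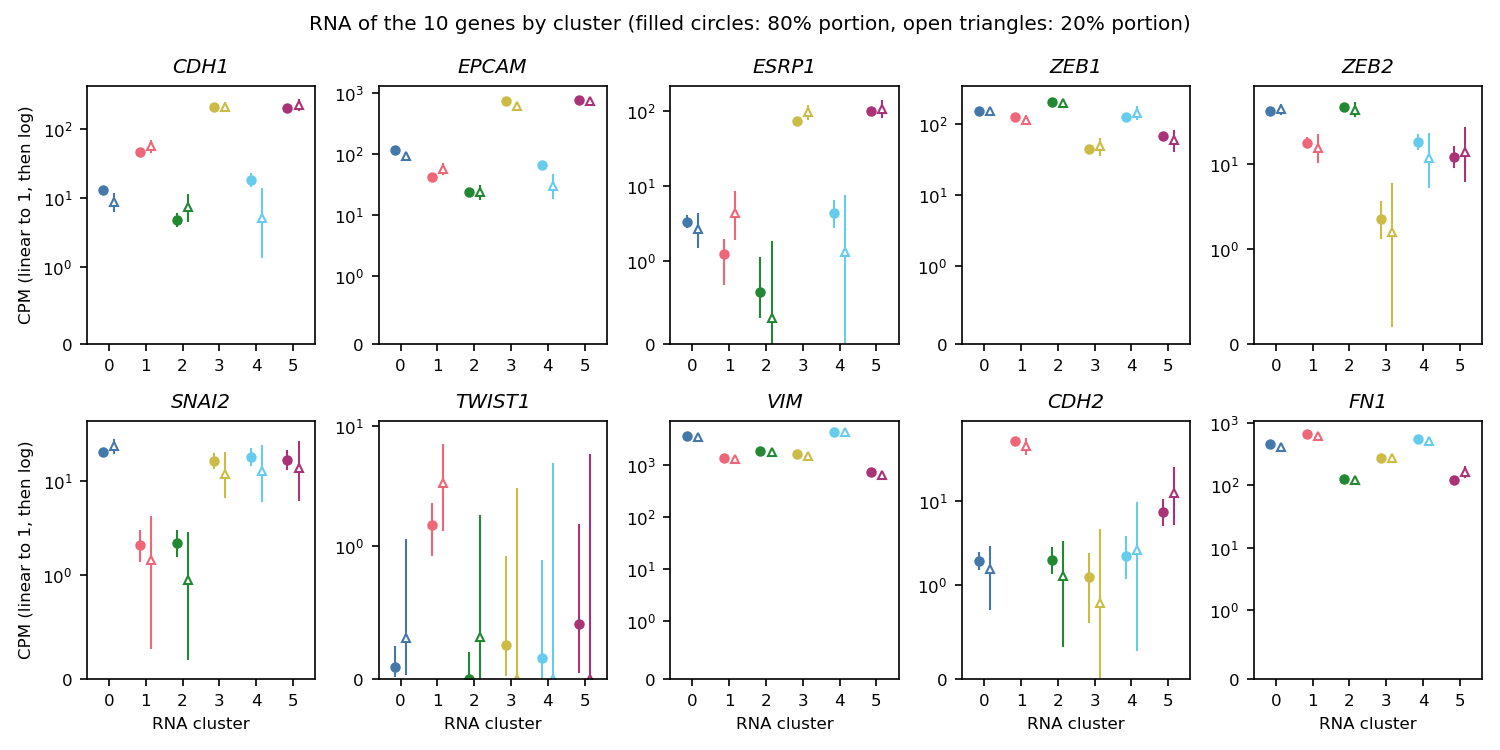
RNA of each gene in CPM (linear up to 1, logarithmic above) in the 6 RNA clusters, with exact 95% Poisson intervals as vertical lines. Filled circles are the 80% and open triangles the 20% portion. CDH1, EPCAM and ESRP1 are high in clusters 3 and 5, ZEB1 and ZEB2 are lowest in cluster 3, and CDH2 stands at 51.2 CPM in cluster 1 against at most 7.42 elsewhere in the 80% portion.

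A level near 0 cannot be read as expression, because free RNA of the other lines enters every droplet. The 9 genes most restricted to cluster 0, 1 or 2 (3 genes each, with at least 1000 UMIs) were found in the other clusters at 0.00599 to 0.262 of their mean level in the library. Without called doublets the range was 0 to 0.132. Of the 60 levels of the 10 genes in the 6 clusters, 14 were at or below the upper end of the first range, and 12 were at or below that of the other. Both ways these included CDH1 in cluster 2, CDH2 in clusters 0, 3 and 4, ZEB2 in cluster 3, ESRP1 in clusters 1 and 2, and TWIST1 in cluster 2, and these levels are read as background. Only with doublets kept, EPCAM and SNAI2 in clusters 1 and 2, CDH2 in cluster 2 and ESRP1 in cluster 0 were included. Their ratios were 0.144 to 0.253. Only without called doublets, CDH1 in cluster 4 (0.115), ESRP1 in cluster 4 (0) and TWIST1 in clusters 3 and 4 (0 in both) were included. These levels are given as measured, and free RNA may make up part or all of them. AC090578.1, the gene most restricted to cluster 5, reached a higher ratio of 0.339 elsewhere, and 0.193 without called doublets. The other genes highest in clusters 3, 4 and 5 were less restricted, with ratios of up to 1.38. With doublets kept, further levels could not be told from background by the ratio of AC090578.1. These were CDH1 in cluster 0 (0.308 of the library mean), ESRP1 in cluster 4 (0.325), TWIST1 in cluster 0 (0.290) and ZEB1 in cluster 3 (0.306). FN1 in clusters 2 and 5 (0.312 and 0.308) and VIM in cluster 5 (0.276) were the others. Without called doublets, only ESRP1 in cluster 4 (0) and TWIST1 in cluster 0 (0.180) of these lay at or below 0.193. The rest then lay above it, from 0.215 for VIM in cluster 5 to 0.313 for FN1 in cluster 2. Some levels named above as included only with doublets kept also lay at or below 0.193 without them. These were EPCAM in cluster 2 (0.141), SNAI2 in clusters 1 (0.156) and 2 (0.149) and ESRP1 in cluster 0 (0.188). EPCAM in cluster 1 (0.245) and CDH2 in cluster 2 (0.209) lay above it.

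CDH1, whose start lies at chr16:68737292-68737352 (hg38), encodes E-cadherin. CDH1 RNA stood at 13.0 in cluster 0, 46.1 in cluster 1, 4.86 in cluster 2, 203 in cluster 3, 18.2 in cluster 4 and 199.5 in cluster 5 (CPM). Clusters 3 and 5 were far above the rest and did not differ beyond counting error, with a ratio of 1.02-fold (95% interval 0.941 to 1.10). Cluster 3 exceeded cluster 2 by 41.9-fold (95% interval 34.0 to 51.6). Cluster 1 lay between, 3.55-fold (95% interval 3.18 to 3.97) above cluster 0 and 4.41-fold (95% interval 4.03 to 4.82) below cluster 3. Without called doublets cluster 4 was at 4.73 CPM, like cluster 2 at 4.75. In the 20% portion the levels from cluster 0 to cluster 5 were 8.67, 55.8, 7.33, 207, 5.19 and 218 CPM, where cluster 5 was the highest and cluster 4 the lowest.

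EPCAM (chr2, start interval 47345158 to 47369148) followed the same division. EPCAM RNA stood at 116 in cluster 0, 41.5 in cluster 1, 23.8 in cluster 2, 718 in cluster 3, 65.8 in cluster 4 and 758 in cluster 5 (CPM). Cluster 5 exceeded cluster 3 by only 1.06-fold (95% interval 1.01 to 1.10), and cluster 2 by 31.8-fold (95% interval 28.9 to 35.1). Unlike CDH1, EPCAM was higher in cluster 0 than in cluster 1, by 2.80-fold (95% interval 2.58 to 3.05), so that these clusters changed places between the adhesion genes. Cluster 4 stood at 33.3 CPM without called doublets. With doublets kept, EPCAM in clusters 1 and 2 lay within the free RNA range. The 20% portion gave 92.9, 56.8, 23.6, 604, 29.9 and 733 CPM from cluster 0 to cluster 5, in the order 5, 3, 0, 1, 4, 2 from the highest to the lowest.

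ESRP1, the splicing factor on chromosome 8, separated the clusters most sharply. ESRP1 RNA stood at 3.32 in cluster 0, 1.22 in cluster 1, 0.627 in cluster 2, 72.3 in cluster 3, 4.28 in cluster 4 and 100.2 in cluster 5 (CPM). The 12 UMIs of cluster 2 put cluster 5 higher by 159.8-fold (95% interval 90.1 to 283). Cluster 5 was also above cluster 3, by 1.39-fold (95% interval 1.23 to 1.56), whereas in the 20% portion, with 105 (95% interval 81.7 to 133) and 95.1 CPM (95% interval 78.7 to 114), the intervals overlapped. Cluster 4 held no ESRP1 UMI outside called doublets, while 27 UMIs lay in them. Thinned to 5000 UMIs per nucleus, 30.9% of the nuclei of cluster 5 and 28.1% of cluster 3 held an ESRP1 UMI, against 0.419% to 1.85% in the other 4 clusters. Without thinning these shares were 55.6%, 59.1%, and 0.826% to 4.10%.

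ZEB1, a zinc finger repressor of CDH1 (start interval chr10:31319125-31321135), had UMIs in every cluster. ZEB1 RNA stood at 152 in cluster 0, 127 in cluster 1, 206 in cluster 2, 44.002 in cluster 3, 126 in cluster 4 and 67.2 in cluster 5 (CPM). Clusters 3 and 5, which held the most CDH1, held the least ZEB1. Cluster 2, which held the least CDH1 with doublets kept, held the most ZEB1. Cluster 4, with ZEB1 at 126 CPM, was as low in CDH1 without called doublets (4.73 against 4.75 CPM in cluster 2). In the 20% portion cluster 4 was the lowest in CDH1, at 5.19 against 7.33 CPM in cluster 2. Cluster 2 exceeded cluster 3 by 4.68-fold (95% interval 4.19 to 5.22) and cluster 5 by 3.06-fold (95% interval 2.74 to 3.43). Clusters 1 and 4 did not differ beyond counting error, with a ratio of 1.01-fold (95% interval 0.930 to 1.10), although CDH1 differed between them. After thinning, 62.0% of the nuclei of cluster 2 held a ZEB1 UMI (exact binomial 95% interval 59.5 to 64.6), against 19.5% in cluster 3 (15.8 to 23.5) and 25.6% in cluster 5. The 20% portion gave 151, 114, 199, 48.4, 144 and 58.8 CPM from cluster 0 to cluster 5, again highest in cluster 2 and lowest in cluster 3.

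ZEB2 encodes the closest relative of ZEB1, and its start interval in the feature table spans chr2:144430934-144520398. ZEB2 RNA stood at 41.7 in cluster 0, 17.8 in cluster 1, 45.9 in cluster 2, 2.28 in cluster 3, 18.2 in cluster 4 and 12.2 in cluster 5 (CPM). The levels of clusters 2 and 0 were close, with a ratio of 1.10-fold (95% interval 1.01 to 1.19), and in the 20% portion their order was the reverse, at 43.0 and 43.7 CPM. Cluster 3 held 18 UMIs, a background level that was 20.1-fold (95% interval 12.6 to 32.1) below cluster 2. Cluster 5, the other cluster with high CDH1, stood at 12.2 CPM, and at 8.55 without called doublets. The levels in the 20% portion, from cluster 0 to cluster 5, were 43.7, 15.3, 43.0, 1.61, 11.7 and 13.9 CPM, and cluster 3 was again the lowest.

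SNAI2, which encodes the repressor Slug and lies on chromosome 8, did not follow the division into high and low CDH1. SNAI2 RNA stood at 20.7 in cluster 0, 2.09 in cluster 1, 2.19 in cluster 2, 16.6 in cluster 3, 18.2 in cluster 4 and 16.9 in cluster 5 (CPM). Clusters 0, 3, 4 and 5 had overlapping intervals between neighbours in the order, and clusters 1 and 2 were lower, cluster 0 exceeding cluster 1 by 9.87-fold (95% interval 6.90 to 14.1) and cluster 2 by 9.42-fold (95% interval 6.91 to 12.8). The 20% portion repeated the gap to clusters 1 and 2, with 23.5, 1.43, 0.956, 12.1, 13.0 and 13.9 CPM of SNAI2 from cluster 0 to cluster 5. SNAI2 in the CDH1-high clusters 3 and 5 was within counting error of cluster 4. Its levels in clusters 1 and 2 lay within the free RNA range with doublets kept. TWIST1, at chr7:19117636-19117636, was close to absent, with 31 UMIs in the 80% and 10 in the 20% matrix. Of these, 22 and 7 lay in cluster 1, which gave 1.49 CPM (95% interval 0.931 to 2.25) and 3.34 CPM. Cluster 2 held no TWIST1 UMI in the 80% portion, which allows up to 0.193 CPM (upper end of the 95% interval). Without called doublets TWIST1 moved from 0.0943 to 0.0552 CPM in cluster 0, from 0.253 to 0 in cluster 3 and from 0.158 to 0 in cluster 4.

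VIM (start at 17229278 on chromosome 10 in the feature table), the intermediate filament of mesenchymal cells, had UMIs in most nuclei of every cluster. VIM RNA stood at 3719.9 in cluster 0, 1389 in cluster 1, 1847 in cluster 2, 1629 in cluster 3, 4428 in cluster 4 and 746 in cluster 5 (CPM). All neighbours in this order differed beyond counting error. Clusters 4 and 0 were the highest, and cluster 5 was the lowest, 5.94-fold (95% interval 5.73 to 6.14) below cluster 4. Cluster 3 exceeded cluster 5 by 2.18-fold (95% interval 2.10 to 2.27) and cluster 1 by 1.17-fold (95% interval 1.15 to 1.20), although its CDH1 was as high as that of cluster 5. Leaving out called doublets moved cluster 5 to 586 CPM and cluster 4 to 4834. VIM in the 20% portion was at 3467, 1340.4, 1789.9, 1536, 4311 and 665 CPM from cluster 0 to cluster 5, in the same order. The summed level of the 8 fibroblast markers was also highest in clusters 0 and 4, at 246 and 199 CPM, against 23.8 to 51.3 in the other clusters. In cluster 0 nearly all of it was COL1A1, and in cluster 4 it was COL1A1 at 125, COL1A2 at 67.0 and PDGFRB at 5.55 CPM, while DCN, LUM and COL3A1 were under 1 CPM in both. The part of these markers in the VIM levels was not tested.

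CDH2, whose start interval on chromosome 18 spans 28036585 to 28177130, encodes N-cadherin and was the most restricted of the mesenchymal genes. CDH2 RNA stood at 1.956 in cluster 0, 51.2 in cluster 1, 1.98 in cluster 2, 1.26 in cluster 3, 2.22 in cluster 4 and 7.42 in cluster 5 (CPM). Cluster 1, the A549-like cluster, held 758 of the 939 UMIs and exceeded cluster 5, the next highest, by 6.90-fold (95% interval 4.94 to 9.64). Cluster 5 stood at 7.60 CPM without called doublets and at 12.4 in the 20% portion, while clusters 0, 3 and 4 were below 1 CPM without doublets. All clusters of the 20% portion, from 0 to 5, gave 1.55, 43.9, 1.28, 0.806, 2.60 and 12.4 CPM of CDH2, with clusters 1 and 5 again above the others. After thinning, 20.6% of the nuclei of cluster 1 held a CDH2 UMI, against 0.686% in cluster 3, where its level was background (median depths before thinning 9151 and 16646 UMIs). CDH1 was held by 19.7% of the same nuclei of cluster 1.

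FN1 (chr2, start near 215436067) encodes fibronectin. FN1 RNA stood at 464 in cluster 0, 668 in cluster 1, 125 in cluster 2, 274 in cluster 3, 564 in cluster 4 and 123 in cluster 5 (CPM). Cluster 1 was the highest, 1.18-fold (95% interval 1.14 to 1.23) above cluster 4. Clusters 2 and 5 were the lowest and did not differ beyond counting error, with a ratio of 1.01-fold (95% interval 0.928 to 1.11), although cluster 2 held the most ZEB1 and cluster 5 was high in CDH1. FN1 in the 20% portion was at 415, 611, 121, 275, 526 and 166 CPM from cluster 0 to cluster 5, and there cluster 5 exceeded cluster 2 beyond counting error, by 1.37-fold (95% interval 1.10 to 1.69). The cluster with the highest RNA was the same in both portions for 7 of 10 genes, where 68.2% of the 16234 genes had the same one. The exceptions were CDH1, ZEB2 and TWIST1. TWIST1 was highest in cluster 1 as measured in both portions, and counts as an exception only because counts under 3 were set to 3, which lifted the small cluster 5 of the 20% portion. For CDH1 the highest clusters were 3 and 5, and for ZEB2 they were 2 and 0, which were close in both portions.

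Clusters 3 and 4, the pair with the smallest difference in the ATAC bins, were far apart in these genes. Cluster 3 exceeded cluster 4 by 11.17-fold (95% interval 9.24 to 13.5) for CDH1, 10.9-fold (95% interval 9.88 to 12.1) for EPCAM and 16.9-fold (95% interval 11.5 to 24.9) for ESRP1. Cluster 4 exceeded cluster 3 by 2.72-fold (95% interval 2.66 to 2.78) for VIM, 2.86-fold (95% interval 2.52 to 3.24) for ZEB1, 8.01-fold (95% interval 4.87 to 13.2) for ZEB2 and 2.06-fold (95% interval 1.95 to 2.17) for FN1. Without called doublets the epithelial genes lay farther apart, with CDH1 at 209.8 CPM in cluster 3 and 4.73 in cluster 4, EPCAM at 740 and 33.3, and ESRP1 at 74.1 and 0. SNAI2 did not differ beyond counting error, with a ratio of 1.10-fold (95% interval 0.856 to 1.41), and CDH2 was at background in both. In the 20% portion cluster 3 held 207 CPM of CDH1 and 1536 of VIM, and cluster 4 held 5.19 and 4311. When these clusters were joined, the number of genes with a range of at least 4-fold was 9, since ZEB1 then spanned 1.62 on the log2 scale.

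Within clusters the genes differed in how evenly nuclei held them (plot of UMIs per nucleus). After thinning to 5000 UMIs, the median nucleus held 18, 6, 9, 7, 23 and 2 VIM UMIs from cluster 0 to cluster 5. Clusters 1 and 2 were the narrowest, with a variance of 1.67 and 1.89 times the mean. Clusters 3 and 5 were wider, at 4.50 and 4.54 times the mean. In cluster 3 the nuclei from the tenth to the ninetieth percentile spanned 2 to 17 VIM UMIs. EPCAM was found after thinning in 91.5% of the nuclei of cluster 3 and 87.2% of cluster 5. In cluster 0, 37.6% of the nuclei held EPCAM, against 10.7% in cluster 2, where its level was lowest (median depths before thinning 15469 and 12672 UMIs). CDH1 was found in 4.11% of the nuclei of cluster 0 and 2.02% of cluster 2, with up to 28 UMIs in a nucleus of cluster 0 before thinning. The variance of FN1 over its mean was largest in clusters 0, 1 and 4, at 4.41, 4.87 and 3.98. These clusters also had the highest mean of FN1, at 2.30, 3.52 and 2.97 thinned UMIs. Thinning left out 3 to 32 nuclei per cluster with fewer UMIs.

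**Figure D2:**
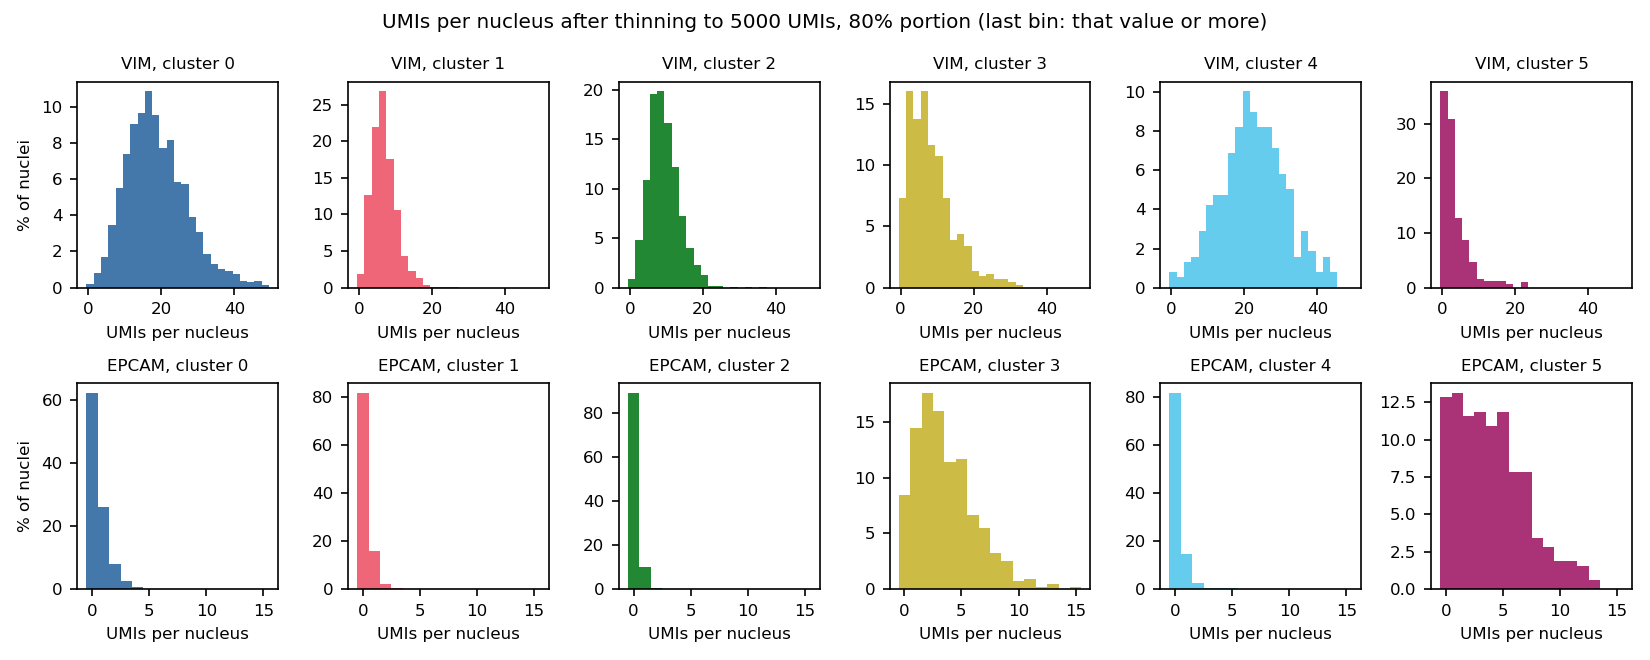
Share of nuclei (percent) by UMIs per nucleus after thinning to 5000 UMIs, for VIM in the upper and EPCAM in the lower row, 1 panel per RNA cluster of the 80% portion. VIM has a median of 23 UMIs in cluster 4 and 2 in cluster 5, and EPCAM a median of 3 in cluster 3, 4 in cluster 5 and 0 elsewhere.

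The wider epithelial list held 34 genes, of which 31 passed the count minimum. A gene was counted as higher or lower in a cluster when it was at least 2-fold from the mean of the other clusters in both portions. In cluster 3, 15 of 31 were higher and 0 lower, where 4.32% and 8.64% of all genes were. In cluster 5, 18 were higher and 0 lower (4.68% and 5.77% of all genes). Cluster 2 had 0 higher and 26 lower (9.16% and 17.8%), and cluster 4 had 1 higher, the desmosome gene DSP, and 21 lower (3.38% and 6.62%). Cluster 0 had 0 higher and 17 lower (8.83% and 11.6%). Cluster 1 was divided, with 4 higher and 13 lower (7.23% and 12.1%), and its higher genes were the junction genes TJP3 and JUP, the transcription factor ELF3 and the polarity gene LLGL2.

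Under the same rule the 9 of the 10 genes that passed the minimum (all but TWIST1) gave 3 higher and 3 lower in cluster 3 and 3 higher and 2 lower in cluster 5, the higher ones being CDH1, EPCAM and ESRP1 in both. Cluster 2 had 1 higher, ZEB2, and 6 lower, and cluster 0 had 1 higher, also ZEB2, and 4 lower. Cluster 4 had 1 higher, VIM, and 4 lower, and cluster 1 had 2 higher, CDH2 and FN1, and 3 lower. The shares over all genes are those given for each cluster with the epithelial list.

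GRHL2, a transcription factor that drives epithelial genes, had the widest range of the list. It stood at 5.99 in cluster 0, 0.743 in cluster 1, 0.209 in cluster 2, 108 in cluster 3, 5.23 in cluster 4 and 86.0 in cluster 5 (CPM), high in the same clusters 3 and 5 as ESRP1. RAB25, a trafficking GTPase, reached 21.2 CPM in cluster 5 and 11.4 in cluster 3, against at most 1.58 elsewhere. ESRP2, the relative of ESRP1, was at 15.7 CPM in cluster 5, 12.3 in cluster 3 and at most 2.73 elsewhere. Claudin 7 (CLDN7), a tight junction protein, was at 299.9 and 252 CPM in clusters 5 and 3 and at most 20.4 elsewhere. ELF3 broke this pattern, with 288 CPM in cluster 1, 197 in cluster 5 and 56.1 in cluster 3. Of the epithelial repressors of ZEB1 in the list, OVOL1 was sparse, with 27 UMIs in cluster 5 and 19 in cluster 3. OVOL2 was highest in clusters 3 and 5, at 27.6 and 26.4 CPM, against 6.69 in cluster 2 and at most 15.7 elsewhere.

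The mesenchymal list, with 32 genes and 31 above the minimum, did not divide the clusters in the same way. In cluster 0, 7 were higher and 4 lower (8.83% and 11.6% of all genes). Cluster 1 had 2 higher and 13 lower (7.23% and 12.1% of all genes). Cluster 2 had 7 higher and 11 lower (9.16% and 17.8% of all genes). Cluster 3 had 2 higher and 11 lower (4.32% and 8.64% of all genes). Cluster 4 had 7 higher and 7 lower (3.38% and 6.62% of all genes). Cluster 5 had 0 higher and 11 lower (4.68% and 5.77% of all genes). The higher genes of clusters 0, 2 and 4 were mostly different genes, with TCF4 and FBN1 in clusters 0 and 2 and SPARC in clusters 2 and 4. Those of cluster 0 were PRRX1, TCF4, TGFB2, MMP2, AXL, FBN1 and CDH11, those of cluster 2 were TWIST2, FOXC2, TCF4, TGFB1, SPARC, FBN1 and DAB2, and those of cluster 4 included SNAI1, SPARC, THBS1, LOX, MMP14 and ITGA5.

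Among the mesenchymal genes with the widest ranges, CDH11, a cadherin of mesenchymal cells, stood at 591 CPM in cluster 0 and at most 43.9 elsewhere. PRRX1, a homeobox gene, was also highest in cluster 0, at 9.14 against at most 1.01 CPM. FOXC2, a forkhead gene, was highest in cluster 2, at 17.4 against at most 3.11 CPM. TCF4, an E-box binding factor, stood at 81.7 in cluster 0, 22.0 in cluster 1, 61.3 in cluster 2, 2.40 in cluster 3, 6.34 in cluster 4 and 8.45 in cluster 5 (CPM). TWIST2 stood at 33.3 in cluster 0, 33.2 in cluster 1, 43.8 in cluster 2, 3.16 in cluster 3, 5.55 in cluster 4 and 14.6 in cluster 5 (CPM). SNAI1 (Snail) was highest in clusters 4 and 3, at 56.2 and 40.1 CPM, and lowest in cluster 0, at 4.27.

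Patterns over the 6 clusters were compared for 2407 genes outside the lists with at least 1000 UMIs and a range of at least 4-fold. Values are Pearson r on log2(CPM + 1) in the 80% portion, by which the genes were chosen, and then in the 20% portion. Most like CDH1 were SEMA3E (0.99 and 0.99), DSC2 (0.96 and 0.95) and KRT80 (0.95 and 0.88). For VIM they were GFPT2 (0.96 and 0.85), CLIC3 (0.95 and 0.87) and MMP17 (0.95 and 0.86). For ZEB1 they were ARHGAP23 (0.96 and 0.90), ZNF629 (0.95 and 0.92) and HSPG2 (0.94 and 0.89). These values describe 6 points that share 1 library in each portion.

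The ATAC counts at the gene starts were not used to form the clusters. Peaks within 1000 bp of the start interval that the feature table gives were summed for each gene, and 10 of 10 genes had at least 2-fold more ATAC CPM in the highest than in the lowest cluster, where 66.3% of 21147 genes did (plot of ATAC counts at the gene starts). For peaks within 100 kb, without those at other gene starts, it was 10 of 10 against 71.7%. The cluster with the most RNA also had the most ATAC counts at the start for 7 of 10 genes, against 47.0% of 15138 genes and 54.0% of those with a range of at least 4-fold in RNA. The exceptions were CDH1, VIM and ZEB1. In the 20% matrix, whose peaks were called separately and hold none at the start of TWIST1 and only 1 in the interval of CDH2, it was 4 of 10. Over the 6 clusters the Pearson r of log2 RNA and log2 ATAC values had a median of 0.86 over the 10 genes, from 0.44 for VIM to 0.98 for ESRP1, against a median of 0.77 over 5346 genes with a range of at least 4-fold.

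**Figure D3:**
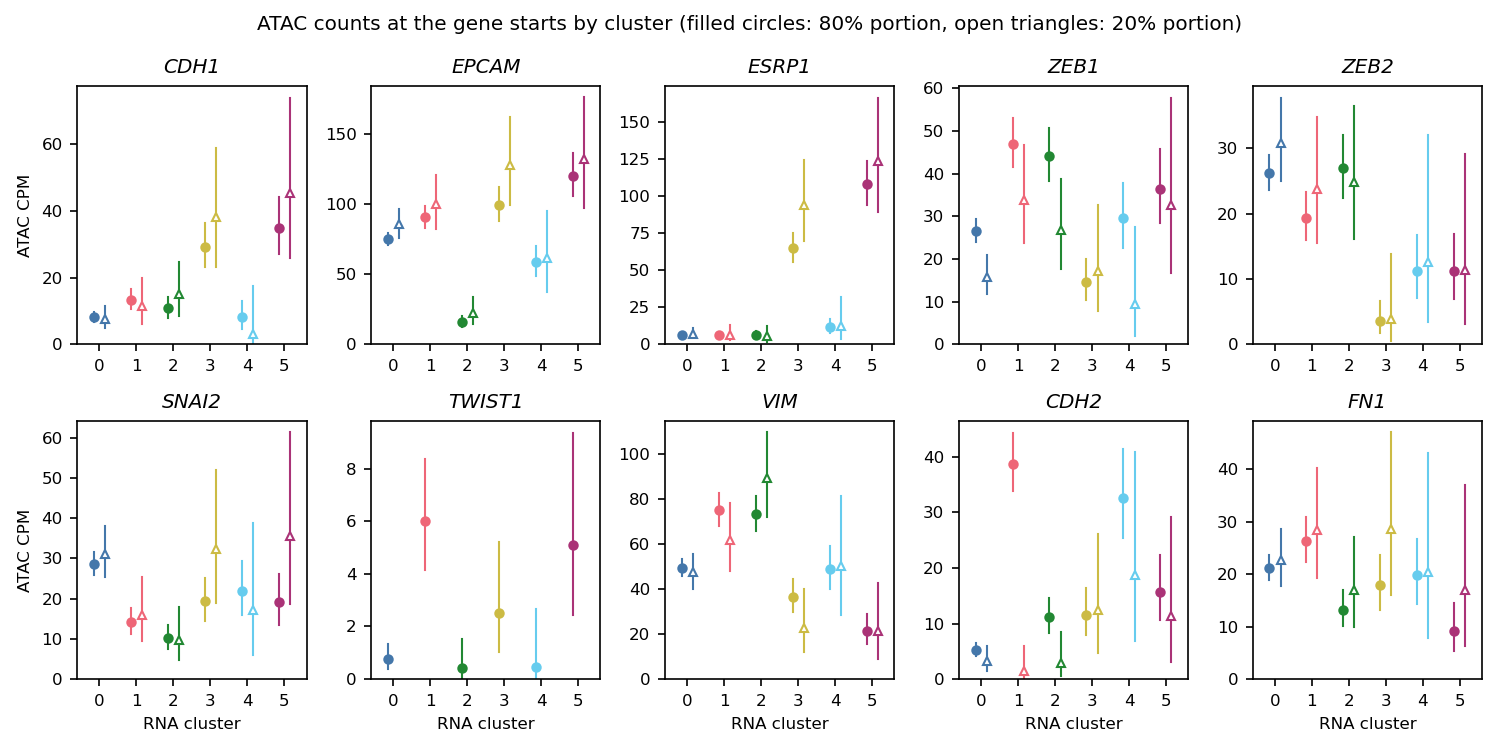
ATAC counts in peaks within 1000 bp of each gene's start interval, in CPM of all ATAC counts of the cluster on a linear axis, with 95% Poisson intervals (counts divided by 2). Filled circles are the 80% and open triangles the 20% portion, where TWIST1 had no peak and CDH2 only 1. ESRP1 stands at 108 CPM in cluster 5 and 64.8 in cluster 3 against at most 11.7 elsewhere in the 80% portion, while ZEB2 is lowest in cluster 3 at 3.61 CPM.

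Among the epithelial genes, the start of ESRP1 was the most divided. Its 2 peaks held 5.99 in cluster 0, 6.17 in cluster 1, 6.08 in cluster 2, 64.8 in cluster 3, 11.7 in cluster 4 and 108 in cluster 5 (ATAC CPM), and those of CDH1 held 8.09 in cluster 0, 13.3 in cluster 1, 10.8 in cluster 2, 29.3 in cluster 3, 8.10 in cluster 4 and 34.8 in cluster 5. At the start of CDH1 the clusters 3 and 5 had overlapping intervals (23.2 to 36.4 and 27.1 to 44.1), as in the RNA, while the interval of cluster 1 overlapped that of cluster 2. In the 20% matrix the start of CDH1 held 7.72 in cluster 0, 11.4 in cluster 1, 15.1 in cluster 2, 38.1 in cluster 3, 3.14 in cluster 4 and 45.5 in cluster 5 (ATAC CPM), and that of ESRP1 held 94.4 in cluster 3 and 124 in cluster 5, with at most 12.5 elsewhere. Without called doublets the starts of CDH1 and ESRP1 in cluster 4 were at 4.15 and 6.82 ATAC CPM. For EPCAM the interval in the feature table holds 6 peaks and gave 74.8 in cluster 0, 90.4 in cluster 1, 15.996 in cluster 2, 99.5 in cluster 3, 58.9 in cluster 4 and 120.2 in cluster 5 (ATAC CPM), highest in cluster 5 and lowest in cluster 2. The peak over the main start of EPCAM, chr2:47369003-47369599, was more like the RNA, with 6.33 in cluster 0, 9.17 in cluster 1, 2.77 in cluster 2, 23.8 in cluster 3, 5.48 in cluster 4 and 24.4 in cluster 5. The peak at the upstream start, chr2:47344709-47345619, which is shared with the divergent gene EPCAM-DT, was highest in cluster 1, at 59.7 CPM.

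Among the transcription factors, the start of ZEB2 held 26.2 in cluster 0, 19.4 in cluster 1, 27.0 in cluster 2, 3.61 in cluster 3, 11.201 in cluster 4 and 11.18 in cluster 5 (ATAC CPM), the lowest value in the cluster with the least ZEB2 RNA (2.02 without called doublets). The start of ZEB1 held 26.5 in cluster 0, 46.9 in cluster 1, 44.1 in cluster 2, 14.6 in cluster 3, 29.6 in cluster 4 and 36.3 in cluster 5, lowest in cluster 3 as well, while the interval of cluster 5 overlapped those of clusters 1 and 2, although cluster 5 held less ZEB1 RNA than either. For SNAI2 the start peak held 28.6 in cluster 0, 14.2 in cluster 1, 10.1 in cluster 2, 19.3 in cluster 3, 21.9 in cluster 4 and 19.1 in cluster 5, lowest in clusters 2 and 1 like the RNA. TWIST1 had 6.00 ATAC CPM in cluster 1 and 5.08 in cluster 5, and at most 2.53 in the other clusters. VIM held 49.5 in cluster 0, 75.2 in cluster 1, 73.4 in cluster 2, 36.7 in cluster 3, 48.9 in cluster 4 and 21.3 in cluster 5 at its start. Clusters 1 and 2 were above clusters 0 and 4 there, the reverse of the RNA. This sum for VIM was taken around the feature table start at 17229278. Around the start in the GENCODE annotation the log2 range of VIM was 2.14 against 1.82, and the order of the clusters there is not given. FN1 held 21.2 in cluster 0, 26.3 in cluster 1, 13.2 in cluster 2, 17.9 in cluster 3, 19.8 in cluster 4 and 9.15 in cluster 5. The highest and lowest clusters were those of the RNA. In the 20% matrix the start of FN1 spanned only 1.68-fold, highest in cluster 3 and lowest in cluster 2. The start of ZEB1 was lowest in cluster 4 there, at 9.41 against 17.2 ATAC CPM in cluster 3, with overlapping intervals.

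The bases just upstream of the start were read from RefSeq promoter entries (GRCh38.p14), which matched 5 of the 10 genes, CDH2, VIM, ZEB1, ZEB2 and FN1. CDH1, EPCAM, ESRP1, SNAI2 and TWIST1 had no entry. For 4 of the 5 genes with an entry the 250 bases before the start are shown, to set the ZEB genes beside a pair of structural mesenchymal genes, 5′ to 3′ on the gene's strand, with capitals for the E-box CACCTG (or CAGGTG on the other strand), which ZEB1, ZEB2 and SNAI2 proteins bind, and for the AP-1 element TGANTCA (a motif that is its own reverse complement).
ZEB1 (chr10:31318966-31319215, plus strand): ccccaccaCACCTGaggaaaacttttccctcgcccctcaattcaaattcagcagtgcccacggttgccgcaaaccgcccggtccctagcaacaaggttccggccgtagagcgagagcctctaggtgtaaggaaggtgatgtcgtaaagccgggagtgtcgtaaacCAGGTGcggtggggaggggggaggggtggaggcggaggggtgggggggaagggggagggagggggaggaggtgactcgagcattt
ZEB2 (chr2:144520120-144520369, minus strand): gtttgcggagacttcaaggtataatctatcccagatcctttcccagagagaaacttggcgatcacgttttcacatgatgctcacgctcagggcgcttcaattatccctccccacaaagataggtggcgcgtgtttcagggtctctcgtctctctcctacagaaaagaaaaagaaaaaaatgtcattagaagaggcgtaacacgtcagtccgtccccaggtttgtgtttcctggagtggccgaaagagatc
CDH2 (chr18:28177131-28177380, minus strand): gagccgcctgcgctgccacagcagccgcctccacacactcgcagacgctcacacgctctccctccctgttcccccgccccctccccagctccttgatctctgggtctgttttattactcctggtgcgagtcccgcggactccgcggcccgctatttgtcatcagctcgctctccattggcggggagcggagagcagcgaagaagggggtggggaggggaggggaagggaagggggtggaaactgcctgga
VIM (chr10:17227991-17228240, plus strand): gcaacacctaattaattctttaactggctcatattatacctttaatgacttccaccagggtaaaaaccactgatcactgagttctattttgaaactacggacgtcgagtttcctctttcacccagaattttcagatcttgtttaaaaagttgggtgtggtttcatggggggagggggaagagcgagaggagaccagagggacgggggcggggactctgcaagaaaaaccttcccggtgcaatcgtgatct
Of these windows, that of ZEB1 held 2 E-boxes, which began 242 and 85 bases before the start, and the others held none. No AP-1 element was found in any of them, and the window of FN1, not shown, held neither. Over all 35116 promoter entries, 17.5% held the E-box and 6.57% the AP-1 element in the same 250 bases. The window of VIM ends just before the RefSeq start, at 17228240, while the feature table gives a start at 17229278.

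The start interval of CDH2 is broad in the feature table and took in 9 peaks, so that its sum of 5.25 in cluster 0, 38.8 in cluster 1, 11.1 in cluster 2, 11.6 in cluster 3, 32.6 in cluster 4 and 15.8 in cluster 5 (ATAC CPM) mixes sites. The peak over the start itself, chr18:28176816-28177638, was open in cluster 1 at 14.4 CPM (95% interval 11.4 to 17.9) while no other cluster passed 2.24. A neighbouring peak upstream, chr18:28177786-28178659, was likewise highest in cluster 1, at 9.09 CPM. Another peak in an intron, chr18:28114889-28115647, was highest in cluster 4, at 15.7 CPM (95% interval 10.8 to 22.1), where CDH2 RNA was at background. Measured at the GENCODE start, accessibility and RNA of CDH2 were both highest in cluster 1.

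Farther from the starts, single peaks also differed between the clusters (plot of peaks by distance). In CDH1, an intronic peak 19.1 kb downstream of the start, chr16:68755971-68756777, held 7.25 in cluster 0, 3.97 in cluster 1, 2.03 in cluster 2, 55.6 in cluster 3, 12.9 in cluster 4 and 59.0 in cluster 5 (ATAC CPM). It was open in the clusters with high CDH1 RNA, with 95% interval 48.7 to 70.7 in cluster 5. A peak 65156 bp downstream, chr16:68801992-68802904, was highest in cluster 2, at 29.5 CPM, where CDH1 RNA was at background. In ZEB2, an intronic peak 105.5 kb downstream, chr2:144414180-144415082, held 24.0 CPM in cluster 2 (95% interval 19.8 to 28.9) against at most 8.94 elsewhere. Upstream of EPCAM, a peak in EPCAM-DT, chr2:47309845-47310711, held 55.1 CPM in cluster 1 and at most 3.10 elsewhere. In FN1, the peak chr2:215409093-215410079 was highest in cluster 5 at 21.1 CPM, although FN1 RNA was lowest there. Near ESRP1, peaks at -38850 and -17545 bp from the start (upstream) were open in clusters 3 and 5, at 18.4 and 22.4 CPM and at 18.2 and 11.4 CPM, and no other cluster passed 3.34. These peaks were chosen after their values were seen.

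**Figure D4:**
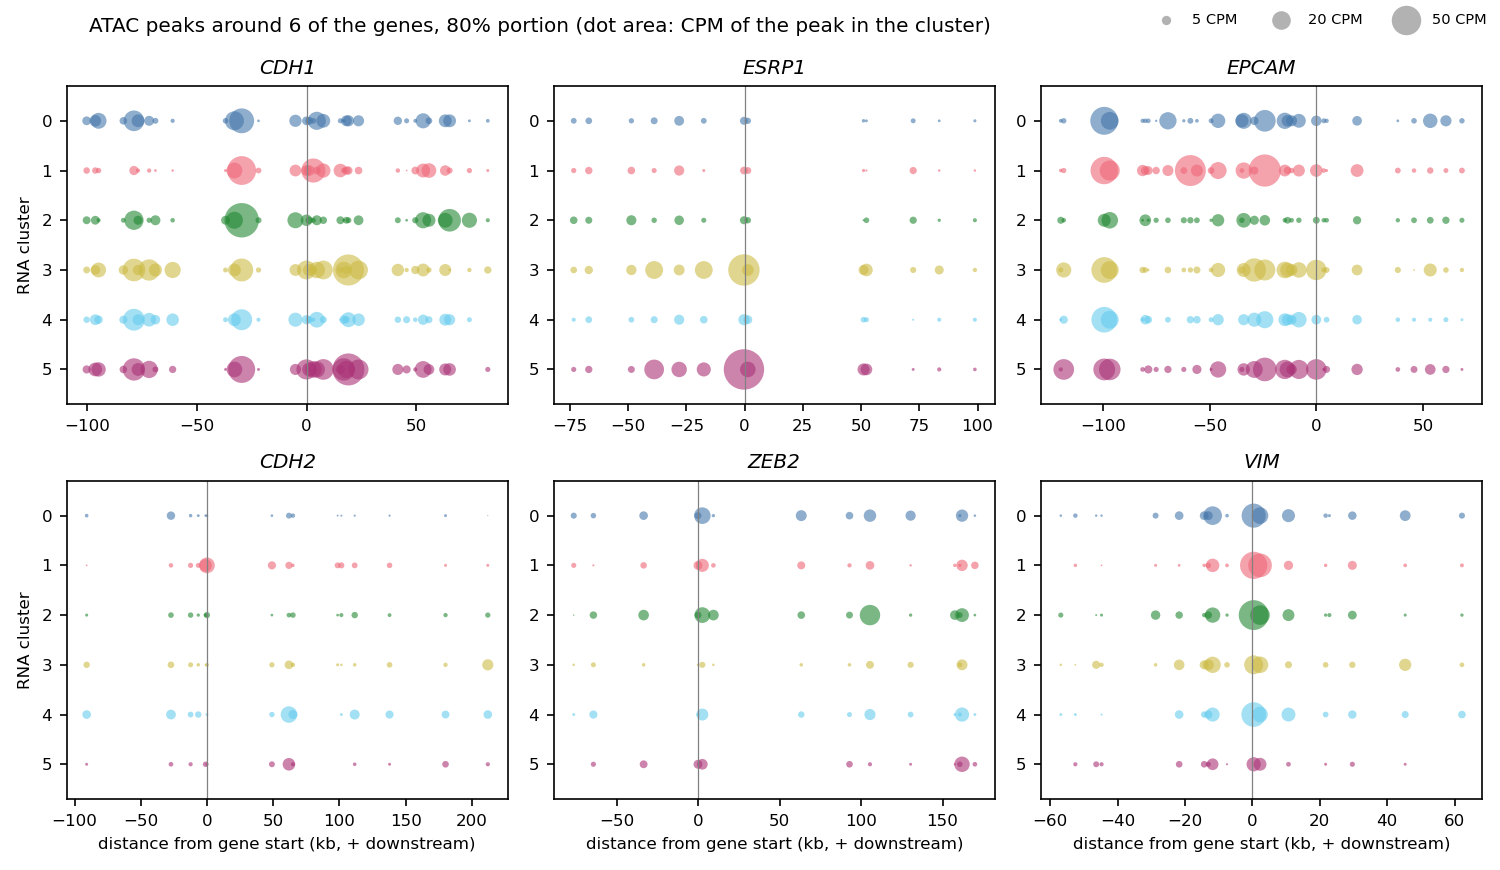
ATAC peaks near 6 of the genes in the 80% portion, by distance of the peak's centre from the gene start in kb (positive values downstream) and by RNA cluster. The area of a dot is the CPM of the peak. ESRP1 has its largest dots at the start in clusters 5 and 3 (94.0 and 56.9 CPM), and CDH1 has the dot 19.1 kb downstream in clusters 3 and 5 (55.6 and 59.0 CPM).

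The middle 300 bases of a pair of these peaks are given, because the peak in CDH1 was open mainly in clusters 3 and 5 and the peak in ZEB2 mainly in cluster 2. They were read from hg38, on the plus strand, and capitals mark the same E-box and AP-1 motifs.
CDH1 intron, clusters 3 and 5 (chr16:68756224-68756523, plus strand): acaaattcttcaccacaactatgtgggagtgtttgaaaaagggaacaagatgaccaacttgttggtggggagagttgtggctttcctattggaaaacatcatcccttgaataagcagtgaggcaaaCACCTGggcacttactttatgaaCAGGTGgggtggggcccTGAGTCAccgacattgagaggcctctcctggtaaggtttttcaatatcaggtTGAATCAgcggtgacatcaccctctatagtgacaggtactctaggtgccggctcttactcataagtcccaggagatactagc
ZEB2 intron, cluster 2 (chr2:144414481-144414780, plus strand): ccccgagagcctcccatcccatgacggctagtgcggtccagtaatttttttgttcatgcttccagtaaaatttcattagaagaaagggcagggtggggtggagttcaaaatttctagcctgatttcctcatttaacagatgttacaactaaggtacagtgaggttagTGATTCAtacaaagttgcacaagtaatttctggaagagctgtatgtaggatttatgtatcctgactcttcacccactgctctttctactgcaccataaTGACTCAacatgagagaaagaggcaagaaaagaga
The CDH1 window open in clusters 3 and 5 held 2 E-boxes, which begin at bases 127 and 150 of the window, and 2 AP-1 elements at bases 167 and 219. The ZEB2 window held no E-box and 2 AP-1 elements. No motif of the GRHL family (AACCNGTT on either strand) was found in either window. No match overlapped another. Among the middle 300 bases of 158289 peaks, 23.5% held an E-box, 33.8% an AP-1 element and 2.08% the GRHL motif, and these matches describe the letters only.

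The miR-200 family, which targets ZEB1 and ZEB2 mRNA, was looked at in the ATAC data because mature microRNAs are not read by this assay. Its members fall into a pair of seed groups (bases 2 to 8, in capitals, RefSeq on GRCh38.p14).
hsa-miR-200b-3p (chr1:1167160-1167181): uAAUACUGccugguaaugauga
hsa-miR-200c-3p (chr12:6963742-6963764): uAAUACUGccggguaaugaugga
hsa-miR-429 (chr1:1169055-1169076): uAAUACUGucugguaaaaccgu
hsa-miR-200a-3p (chr1:1167916-1167937): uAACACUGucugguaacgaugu
hsa-miR-141-3p (chr12:6964155-6964176): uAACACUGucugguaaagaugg
miR-200b, miR-200c and miR-429 share the seed AAUACUG, and miR-200a and miR-141 share AACACUG. The peak just before miR-200c on chromosome 12, from 6962984 to 6963656 in the host gene MIR200CHG, held 5.32 in cluster 0, 1.4996 in cluster 1, 1.39 in cluster 2, 13.5 in cluster 3, 4.05 in cluster 4 and 36.3 in cluster 5 (ATAC CPM). The peak on chromosome 1, from 1162565 to 1163341, upstream of miR-200b, held 1.83 in cluster 0, 0.706 in cluster 1, 3.09 in cluster 2, 7.04 in cluster 3, 5.24 in cluster 4 and 15.8 in cluster 5. Both were highest in cluster 5 and next highest in cluster 3. Of the other 6 peaks near these microRNAs, the one from 1157278 to 1158026 on chromosome 1 was instead lowest in clusters 3 and 5, with 13.4 in cluster 0, 15.97 in cluster 1, 14.1 in cluster 2, 1.81 in cluster 3, 7.15 in cluster 4 and 3.81 in cluster 5, and the one from 1158155 to 1158622 was lowest in cluster 5, at 1.52 CPM. MIR200CHG RNA was sparse, with 10 UMIs in cluster 5 (2.06 CPM, 95% interval 0.989 to 3.79) and 9 in cluster 3 (1.14 CPM, 95% interval 0.520 to 2.16). Any other cluster held at most 8 UMIs and 0.189 CPM. In the 20% portion cluster 5 held 4 UMIs (6.19 CPM) and cluster 3 held 6 (4.84 CPM), against at most 1 UMI (0.477 CPM) elsewhere. The peaks were chosen after their values were seen.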

How the data were processed

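RNA UMIs and ATAC counts per barcode were deposited by the authors as whole-number counts without normalization, 1 matrix for each portion. The submitters' notes name Cell Ranger ARC 2.0.0 and GRCh38. Cell and peak calling were done for each matrix before deposit. The gene annotation, the counting of introns and the unit of the ATAC counts (90.1% of the nonzero values in the 80% matrix were even) are not given in the sources used here. The long-read sample, the matrix of both portions together and the demuxlet labels were not used here, and a gene of the mesenchymal list and a sequence are not reported here.

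The 10 genes, the wider lists, the markers and the rules were chosen with earlier results of these data known. All deposited barcodes entered the main values. UMIs were log-normalized, the 2000 most variable genes without the 76 listed genes were reduced to 30 components, and Louvain clusters were found on a graph of 20 neighbours (Seurat 5.3.0, R 4.3.3, random seed 0). The resolution was the lowest tried, between 0.02 and 1, with 6 or more clusters that each held 1% of the nuclei. The 20% nuclei took the cluster of the best correlated mean profile, which gave back the cluster of 97.8% of the 80% nuclei. ATAC clusters came from TF-IDF and singular value decomposition without peaks within 100 kb of the listed genes. Scrublet (scanpy 1.11.5, expected rate 0.06) marked doublets.

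Counts were summed per cluster and scaled to CPM. Intervals are exact 95% Poisson intervals, on counts divided by 2 for ATAC, and those of ratios are approximate intervals on the log scale from the same counts. Fewer than 3 counts were set to 3 for fold changes. For values per nucleus, UMIs were thinned to 5000 without replacement. Named genes of the wider lists are the 5 with the widest range in each, with SNAI1, TWIST2, OVOL1, OVOL2, GRHL2, ESRP2 and MIR200CHG added as regulators or partners. Peaks were placed with GENCODE v44. Sequences came from RefSeq tables on GRCh38.p14 and from hg38. The clustering and the fold rule were tested on simulated data. No test was run, since a portion had 1 library. Alternatives covered doublets, depth filters, shared barcodes, cluster labels and number, seed, scaling, thinning, windows, peaks and the 20% matrix.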

Additional observations from a re-analysis of the deposited data

How the results depend on the processing

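Of the 43 recomputed counts of genes, 42 stayed within 1.5 times the value reported. The other was the number of genes whose highest RNA cluster was also their highest gene-start cluster, which was 4 in the 20% matrix against 7. The peaks of that matrix were called separately, with none at the start of TWIST1, and the cause was not tested. The number with a range of at least 4-fold in RNA was 9 or 10 under all alternatives, and the number with at least 2-fold at the start 8 to 10. Of 180 recomputed ranges of single genes, 149 stayed within their counting interval and 31 moved. The ranges cannot change sign, but the highest cluster did change. The number of genes with the same highest RNA cluster in both portions was 7 to 9, and the number whose highest RNA cluster was also highest at the start was 4 to 8. The RNA range of ZEB1 ran from 1.62 to 2.36 on the log2 scale, that of ZEB2 from 2.29 to 4.95, that of CDH2 from 4.92 to 7.03 and that of VIM from 2.32 to 3.11. The low ends came with 5 clusters, and the high ends with only the 5803 nuclei whose RNA and ATAC clusters paired and that were not called doublets, an alternative chosen after seeing the data. At the gene starts FN1 ran from 0.75 to 1.58 and CDH2 from 2.75 to 5.04, the latter at the GENCODE canonical start, also added after seeing the data, which gave 10 genes with at least 2-fold and 6 with the same highest cluster.

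No paired analysis was possible because each portion gave 1 library of each kind, so no group had replicates. Without replicates the intervals cover counting error only. Depth limited TWIST1 most. Levels within the free RNA range both with and without called doublets were not read as expression. The other levels within either range are given as measured.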

Other observations

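Epithelial and ZEB transcripts were found in the same nuclei. After thinning to 5000 UMIs, a nucleus was counted as epithelial-positive with at least 1 UMI of CDH1, EPCAM or ESRP1, and as ZEB-positive with at least 1 UMI of ZEB1 or ZEB2. In cluster 3, 94.97% of the nuclei were epithelial-positive, 20.6% ZEB-positive and 19.0% both. In cluster 5 the shares were 90%, 28.4% and 22.2%, and in cluster 2 they were 13.0%, 68.9% and 8.51%. The shares with both were 22.1% in cluster 0, 15.9% in cluster 1 and 10.1% in cluster 4. In the 80% portion, epithelial-positive nuclei were ZEB-positive less often than epithelial-negative nuclei in every cluster. The shares were 20% against 31.8% in cluster 3 and 24.7% against 62.5% in cluster 5. In the 20% portion clusters 1, 2 and 4 went the other way. Without called doublets the shares with both were 17.3% in cluster 3, 20.8% in cluster 5 and 8.50% in cluster 2. Free RNA can give either count, and its part was not tested. Whether the shares with both differ from what the single shares alone would give was not tested either.

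In clusters 3 and 5 the few nuclei without an epithelial UMI held more VIM in the 80% portion, with a mean of 16.4 thinned UMIs in 22 nuclei against 7.94 in the other nuclei of cluster 3, and 8.28 in 32 nuclei against 2.96 in cluster 5. In the 20% portion, with 3 and 5 such nuclei, the means were 7.33 against 8.18 and 3.80 against 3.09. The difference in cluster 3 was not seen there. In the 80% portion, 20 of the 440 nuclei of cluster 3 and 21 of the 329 of cluster 5 fell with cluster 0 by ATAC. The mean of thinned VIM UMIs in cluster 0 was 18.9. Whether these were the nuclei without an epithelial UMI, here or in the ZEB shares above, was not tested. NKX2-1, the lineage factor of lung adenocarcinoma, stood at 50.5 in cluster 0, 2.30 in cluster 1, 2.56 in cluster 2, 60.7 in cluster 3, 19.3 in cluster 4 and 75.2 in cluster 5 (CPM), highest in the clusters with high CDH1 and in cluster 0. Keratin 18 was highest in cluster 1, at 5829.6 CPM, and at 728 CPM in both clusters 0 and 2, the lowest values.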
